A study of Homo sapiens with 20 samples.

Results

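The genes that carry glucose through glycolysis, pass pyruvate into mitochondria and answer to low oxygen were followed in melanoma cells after silencing of FRA1, the AP-1 transcription factor encoded by FOSL1. The group was listed by gene name, with earlier results of these data known. It holds 42 of the 58870 genes in the RNA-seq table: 4 glucose and lactate carriers, 17 enzymes between hexokinase and lactate dehydrogenase, 2 PFKFB enzymes, 4 genes of pyruvate entry into mitochondria, 3 genes of hypoxia-inducible factor (HIF) and its feedback, and 12 hypoxia-induced genes. RNA was sequenced from A375 and 1205Lu cells, both established human melanoma lines, treated with non-targeting siRNAs (si-NT) or with siRNAs against human FRA1 (si-FOSL1), with 3 libraries in each of the 4 groups and 12 in all. FRA1 occupancy was profiled in both lines, with no siRNA named in the labels, by Cut&Run, which releases DNA around an antibody-bound protein, with 3 FRA1 libraries and 1 IgG control library per line. No library was labelled as hypoxic, and the time between transfection and harvest was not given in the sources used here. Each group is 1 cell line, and nothing stated that the libraries came from separate cultures, so the p-values below measure the spread between libraries, which may be technical.

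Glycolysis splits glucose into pyruvate in the cytosol. Lactate dehydrogenase then turns pyruvate into lactate, which leaves through monocarboxylate carriers, or the mitochondrial pyruvate carrier takes it to the pyruvate dehydrogenase complex. Tumour cells often keep this pathway high with oxygen present, and melanomas are known for high lactate output. Many of its genes are also induced when the HIF alpha subunits, which prolyl hydroxylases of the EGLN family mark for degradation in oxygen, accumulate and bind promoters that hold the core letters ACGTG or GCGTG.

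The RNA-seq libraries held 20573412 to 32518903 reads on genes, as estimated by RSEM. FOSL1 was 412, 423 and 407 CPM (reads relative to the TMM-scaled library size) in the A375 si-NT libraries and 25.6, 25.6 and 25.96 CPM in the A375 si-FOSL1 libraries, and 491, 483 and 477 against 69.2, 70.8 and 64.98 CPM in 1205Lu cells, so 6.19% and 13.97% of its mRNA was left. Of the melanocyte lineage and melanoma markers, SOX10 averaged 43.9 CPM in A375 and 912 CPM in 1205Lu si-NT libraries and MITF 52.1 and 3.54 CPM. The pigment genes PMEL, MLANA, TYR and DCT were all under 1 CPM on average in the si-NT libraries of both. With S100A1, S100B and MIA, the 9 markers summed to 99.8 to 103 CPM in A375 and 1594 to 1628 CPM in 1205Lu si-NT libraries. After silencing the sums were 101 to 107 and 1312 to 1341 CPM. In A375, 3 rose and 1 fell of 6 tested, and in 1205Lu 4 fell and 0 rose of 7 tested. The summed level of 4 leukocyte markers reached at most 1.5 CPM in a library, that of 5 epithelial markers 1.38 CPM and that of 3 endothelial markers 2.72 CPM. Of the dedifferentiated melanoma markers AXL, NGFR, EGFR and SOX9, all 4 fell with si-FOSL1 in A375 (summed level 388 to 395 against 1043 to 1054 CPM). In 1205Lu, AXL and SOX9 fell (log2 -0.91 and -0.22) and NGFR and EGFR rose (2.1 and 0.13), with a summed level of 916 to 932 against 1199 to 1232 CPM. The part of these markers' cell state in the changes below was not tested.

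Silencing of FOSL1 moved most of the 42 genes by modest amounts, and more of them down than up. All 42 were tested in A375 cells, where 24 fell and 14 rose at an edgeR adjusted p under 0.05, against 25.1% of all 16899 genes tested that fell and 25.7% that rose. In 1205Lu cells 40 were tested, since ALDOC and CA9 were too low, and 25 fell and 5 rose, against 19.9% and 20.6% of 17136 genes. Most members are abundant, and abundant genes were called more often. Among genes with a mean of at least 50 CPM, 15 of 25 members fell and 7 rose in A375, where 38.5% and 41.3% of all such genes did, and 20 of 28 fell and 3 rose in 1205Lu, where 34.5% and 39.2% of all such genes did. The median log2 fold change (si-FOSL1 over si-NT) of the members was -0.14 in A375 and -0.30 in 1205Lu, and that of all genes tested was 0.00 in both. Changes past 2-fold (absolute log2 over 1, called) were seen for 5 members in A375, against 5.56% of all genes, and for 6 in 1205Lu, against 3.13%. The 3 libraries of one treatment did not overlap those of the other for 37 members in A375 and 32 in 1205Lu, which is so for 56.8% and 49.3% of all genes tested.

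**Figure D1:**
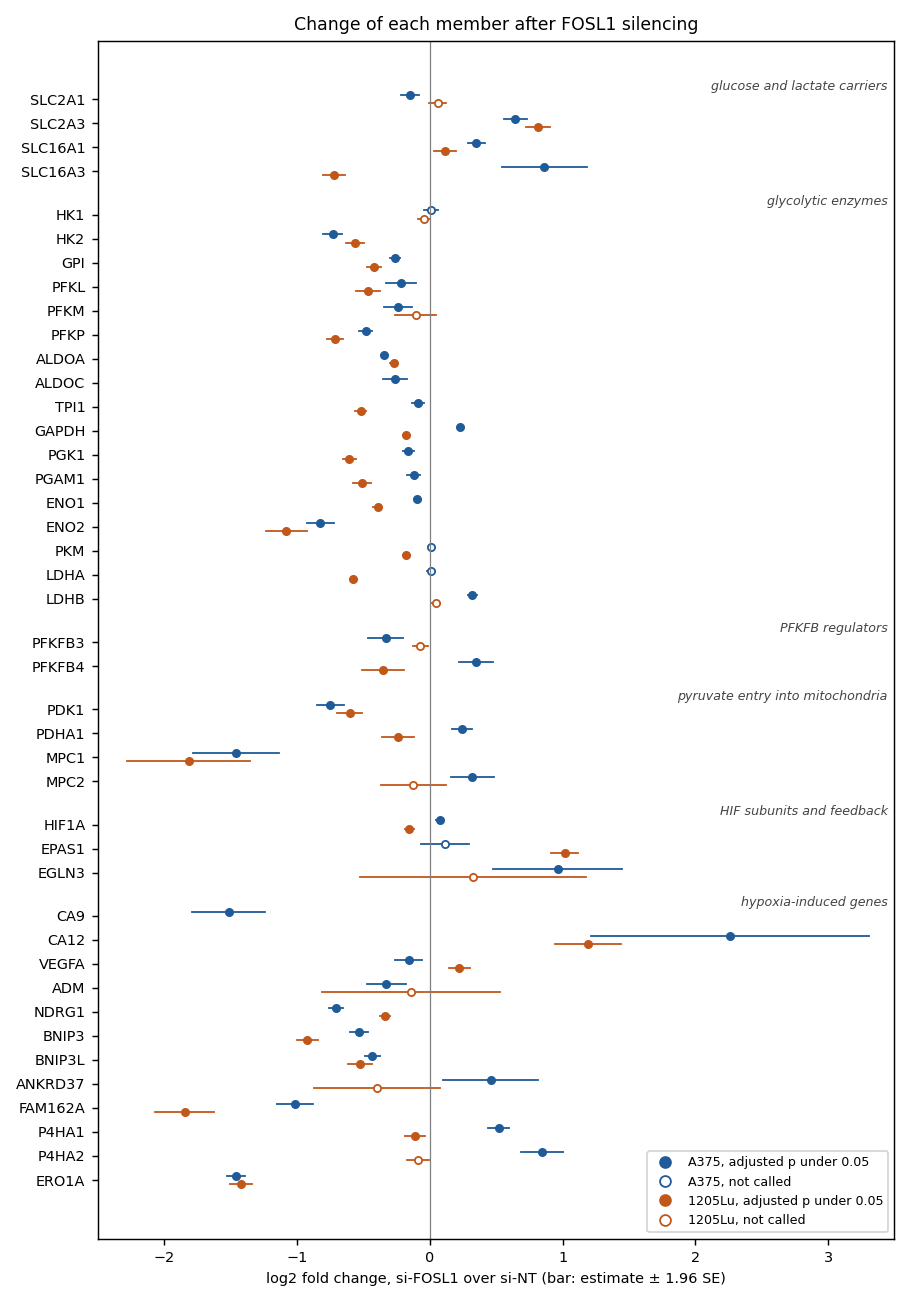
Log2 fold change of each member (si-FOSL1 over si-NT) in A375 (blue) and 1205Lu (orange), with bars for the 95% interval and filled points for an edgeR adjusted p under 0.05, grouped by role. ERO1A, MPC1 and FAM162A lie left of -1 in both lines, joined by CA9 in A375 and ENO2 in 1205Lu, CA12 lies furthest to the right in both, and ALDOC and CA9 have no 1205Lu point because they were not tested there.

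Of the 40 members tested in both lines, 17 fell in both: HK2, GPI, PFKL, PFKP, ALDOA, TPI1, PGK1, PGAM1, ENO1, ENO2, PDK1, MPC1, NDRG1, BNIP3, BNIP3L, FAM162A and ERO1A. Of all 15056 genes tested in both lines, 10.8% fell in both. SLC2A3, SLC16A1 and CA12 rose in both, where 10.4% of all genes did. SLC16A3, GAPDH, PFKFB4, PDHA1, HIF1A and P4HA1 rose in A375 and fell in 1205Lu, as 4.35% of all genes did, and VEGFA alone among the members fell in A375 and rose in 1205Lu, as 4.51% of all genes did. Across the 40 members the log2 fold changes of the 2 lines had a Pearson r of 0.75 and a Spearman rho of 0.635, beside 0.267 and 0.259 across all 15056 genes. These are descriptions across genes, which are not independent replicates and share the libraries of each line. The 15056 genes include less abundant ones, and no share or correlation over both lines was taken at matched abundance. The A375 value of CA12, the furthest from 0 among the members, rests on few reads.

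**Figure D2:**
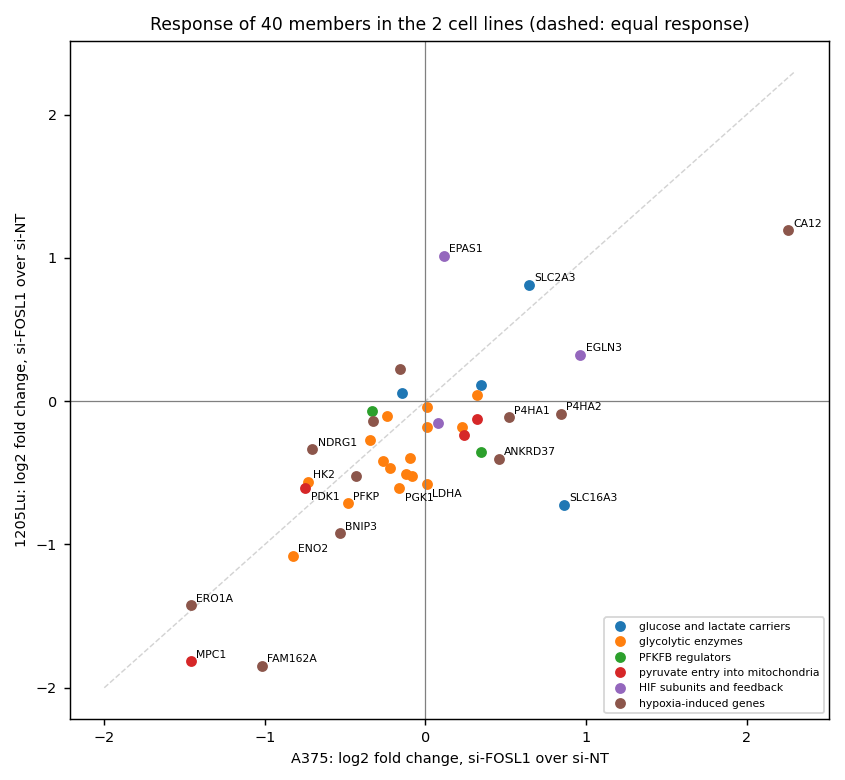
Log2 fold change in A375 (x axis) against that in 1205Lu (y axis) for the 40 members tested in both lines, coloured by role, with a dashed line where the responses are equal. The 17 members that fell in both lines lie at the lower left, SLC16A3 and P4HA1 lie to the right and below 0, and EPAS1 lies high on the y axis near 0 on the x axis.

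Among the carriers, the 2 glucose carriers went apart. SLC2A3 encodes GLUT3, a high-affinity glucose carrier, and was 50.5, 54.6 and 53.1 CPM under si-NT and 83.3, 79.1 and 85.7 CPM under si-FOSL1 in A375 cells. In 1205Lu cells it was 39.7, 36.9 and 39.9 against 70.9, 68.5 and 67.9 CPM. Every silenced library was above every control library in both lines, with log2 fold changes of 0.64 (SE 0.0439) and 0.81 (SE 0.0468). The 3 pseudogenes named after SLC2A3, counted apart, held at most 7.67% of the counts of gene and pseudogenes together in a library. The near-identical copy SLC2A14 could also share reads with SLC2A3. SLC2A1 encodes GLUT1, the main glucose carrier of most tumour cells, and fell only slightly in A375 cells, by 0.15 on the log2 scale (152 to 138 CPM on average). It had a log2 fold change of 0.06 in 1205Lu cells (95% interval -0.00 to 0.12), which did not pass. Such intervals, unlike the calls, are not adjusted for the number of genes. Per kb of transcript, SLC2A3 made up 23.5% ± 1.42 (SD, n = 3) of the 2 glucose carriers in A375 si-NT and 34.7% ± 1.17 in si-FOSL1 libraries, and 20.4% ± 0.486 and 30.2% ± 1.04 in 1205Lu libraries.

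The lactate carriers also differed. SLC16A3 encodes MCT4, the lactate exporter of strongly glycolytic cells, and was 118, 110.1 and 125 CPM in the 1205Lu si-NT libraries and 70.8, 71.1 and 74.4 CPM in the si-FOSL1 libraries, a log2 fold change of -0.72 (SE 0.0428, edgeR adjusted p = 3.1e-11). In A375 cells it was low, 2.67, 3.56 and 2.86 CPM under si-NT and 5.32, 5.796 and 5.54 CPM under si-FOSL1, a log2 fold change of 0.86 (SE 0.162, edgeR adjusted p = 8.9e-05). The groups did not overlap in either line and the directions were opposite. SLC16A1 encodes MCT1, which moves lactate both ways, and rose in A375 cells from 126 to 160.3 CPM (log2 0.35). Its log2 fold change in 1205Lu cells was 0.11, a call that was lost with DESeq2 (0.11), with at least 10 counts required in every library (0.10) and without si-NT replicate 1 (0.11), si-NT replicate 3 (0.10), si-FOSL1 replicate 1 (0.11) or si-FOSL1 replicate 2 (0.09).

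In the upper steps of glycolysis HK2 and PFKP moved most. HK2, the hexokinase that tumour cells add to the ubiquitous HK1 and that docks on mitochondria, was 132, 127 and 127 CPM in A375 si-NT libraries and 75.4, 76.1 and 82.5 CPM in si-FOSL1 libraries. The 1205Lu values were 157, 145 and 152 and 106, 103 and 103 CPM. HK2 fell in both lines, to 60.2% and 67.7% of the si-NT level, with log2 fold changes of -0.73 (SE 0.0367) and -0.56 (SE 0.0342). HK1 did not pass in either line, with 95% intervals of -0.05 to 0.06 in A375 and -0.09 to -0.00 in 1205Lu (edgeR adjusted p = 0.83 and 0.13). GPI, which turns glucose phosphate into fructose phosphate, fell by 0.27 and 0.42 on the log2 scale.

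PFKP, the platelet form of phosphofructokinase and the most abundant of the 3 forms per kb in both lines, was 192, 192 and 199.9 CPM in 1205Lu si-NT libraries and 118, 125 and 118 CPM after silencing (log2 -0.71, SE 0.0304). In A375 cells it was 268, 259.7 and 263 and 185, 193 and 188 CPM (log2 -0.48, SE 0.0248). PFKL, the liver form, fell by 0.22 in A375 and 0.47 in 1205Lu on the log2 scale, and PFKM, the muscle form, fell by 0.24 in A375 and had an interval of -0.26 to 0.05 in 1205Lu. The difference of the PFKM responses was -0.15 on the log2 scale (edgeR adjusted p = 0.23), which did not pass. ALDOA, the main aldolase, fell by 0.34 and 0.27, from 1450.3 to 1147 CPM in A375 and from 868 to 727 CPM in 1205Lu.

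TPI1, PGK1, PGAM1 and ENO1 fell in both lines, and by more in 1205Lu. TPI1, which interconverts the triose phosphates, was 481, 469.6 and 497 CPM in 1205Lu si-NT libraries and 336, 345 and 339.6 CPM in si-FOSL1 libraries (log2 -0.52), and 324, 311 and 323 against 302, 306 and 298 CPM in A375 cells (log2 -0.09), a call lost when no filter on low counts was used (-0.06). PGK1, which makes the first ATP of the pathway, was 307, 311 and 325 and 205, 213 and 208 CPM in 1205Lu (log2 -0.61) and 531, 539 and 514 and 475, 480.0 and 464 CPM in A375 (log2 -0.16). PGAM1, the phosphoglycerate mutase, was 156, 163 and 157 and 118, 111 and 109.6 CPM in 1205Lu (log2 -0.51) and 251, 253 and 253 and 238, 229.9 and 231 CPM in A375 (log2 -0.12). All 3 had silenced libraries below every control library in both lines, and the drop was larger in 1205Lu by 0.42, 0.43 and 0.38 on the log2 scale (interaction, edgeR adjusted p = 2.0e-10, 3.4e-10 and 5.6e-08). ENO1, the ubiquitous enolase, fell by 0.39 in 1205Lu and by 0.09 in A375 (interaction 0.29, edgeR adjusted p = 2.8e-10).

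ENO2, the neuronal enolase, is expressed far below ENO1 and showed the steepest drop of the enzymes. It was 52.1, 54.3 and 56.2 CPM under si-NT and 31.5, 30.6 and 29.9 CPM under si-FOSL1 in A375 cells (log2 -0.83, SE 0.0507). In 1205Lu cells it was 23.3, 24.8 and 26.5 and 12.1, 11.7 and 11.9 CPM (log2 -1.08, SE 0.07799). GAPDH, often taken as a constant reference gene, rose in A375 cells from 5526 to 6495 CPM (log2 0.23) and fell in 1205Lu cells from 8029.6 to 7169.6 CPM (log2 -0.18), with no overlap between groups in either line. GAPDH alone held more than 1 in 3 of the summed CPM of the 17 enzymes in each library. PKM, the pyruvate kinase, did not pass in A375 cells (log2 0.01, interval -0.01 to 0.03) and fell by 0.18 in 1205Lu. ALDOC, an aldolase of brain, fell by 0.26 in A375 cells and had 6 to 17 counts per 1205Lu library.

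**Figure D3:**
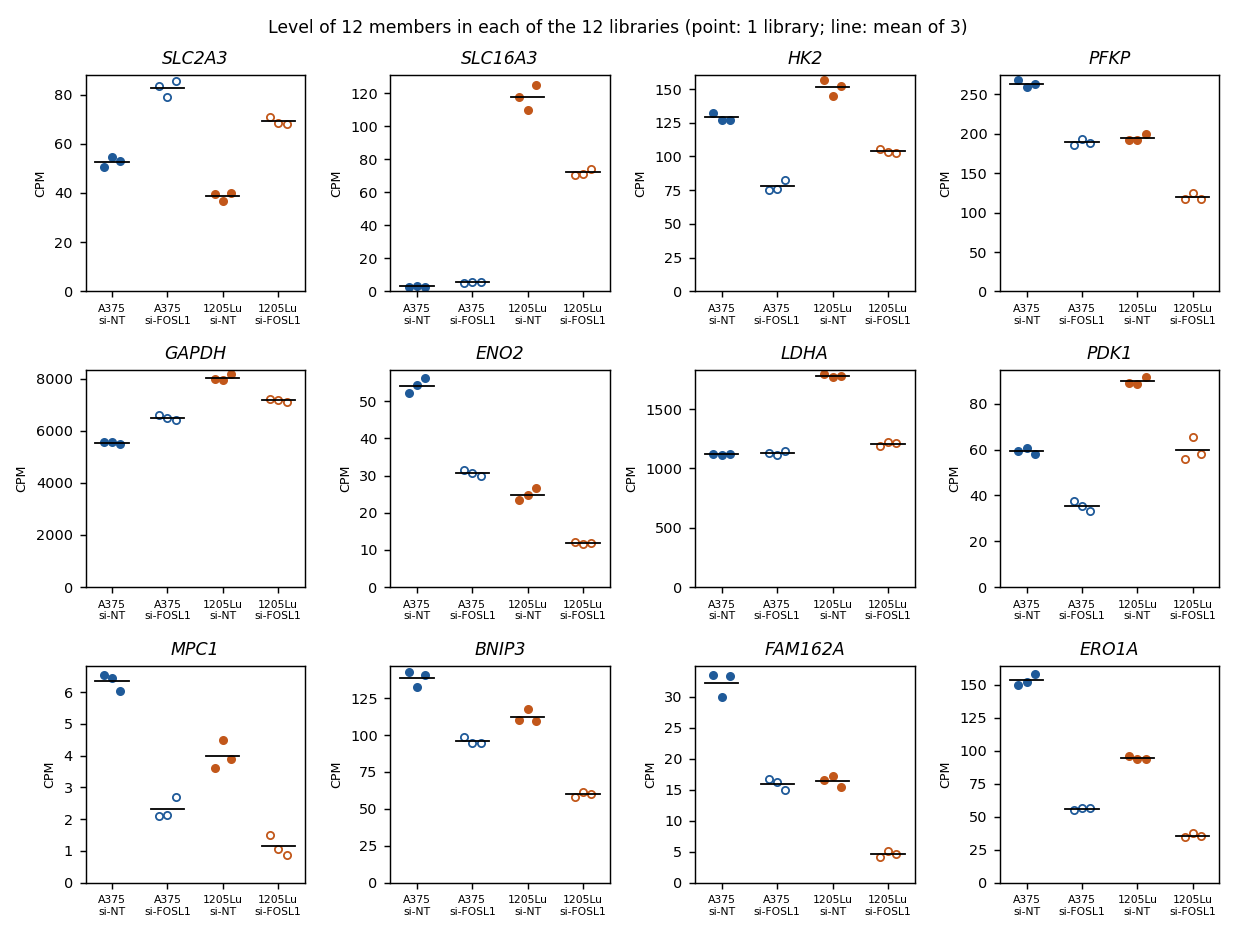
CPM of 12 members in each of the 12 libraries (1 point per library, filled for si-NT and open for si-FOSL1, blue for A375 and orange for 1205Lu, with a line at the mean of 3), each panel starting at 0. HK2, PFKP, ENO2, PDK1, MPC1, BNIP3, FAM162A and ERO1A have every open point below the filled points of their line, SLC2A3 has them above, and LDHA separates in 1205Lu but overlaps in A375.

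Lactate dehydrogenase is built from the A subunit, LDHA, and the B subunit, LDHB. LDHA was 1796, 1772 and 1777 CPM in the 1205Lu si-NT libraries and 1186, 1220.1 and 1215 CPM in the si-FOSL1 libraries, a log2 fold change of -0.58 (SE 0.01297, edgeR adjusted p = 1.4e-17). In A375 cells it was 1122, 1111 and 1124 and 1128, 1111 and 1147 CPM, where the groups overlapped and the 95% interval of the log2 fold change was -0.02 to 0.04. The difference between the lines was 0.57 on the log2 scale (SE 0.0218, edgeR adjusted p = 1.7e-16). LDHB rose in A375 cells (log2 0.32, 549.9 to 688 CPM) and in 1205Lu its groups did not overlap but the log2 fold change of 0.04 did not pass. The LDHB change in 1205Lu passed under 8 alternatives (0.041 to 0.074), among them library size only (0.074), upper-quartile scaling (0.054), no filter (0.061), all 12 libraries in one fit (0.059), and without si-NT replicate 3 (0.053) or si-FOSL1 replicate 3 (0.056). Per kb, the LDHA share of both subunit mRNAs was lower after silencing in both lines, 54.2% ± 0.206 against 48.8% ± 0.599 in A375 and 66.8% ± 0.348 against 56.7% ± 0.359 in 1205Lu (SD, n = 3).

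**Figure D4:**
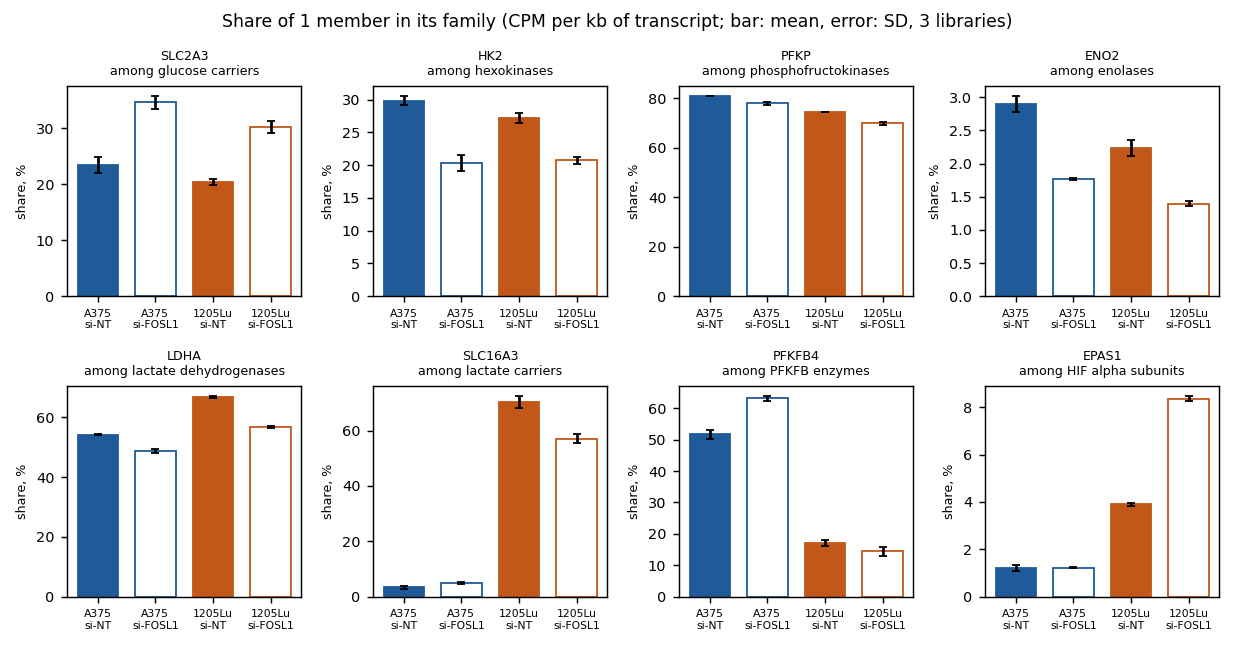
Share of 1 member in the summed level (CPM per kb of canonical transcript) of its family, as the mean of 3 libraries with SD, in A375 (blue) and 1205Lu (orange) with si-NT (filled) and si-FOSL1 (open), each axis starting at 0. The shares of HK2, PFKP, ENO2 and LDHA are lower and that of SLC2A3 is higher after silencing in both lines, while EPAS1 goes from 3.902% to 8.36% of the HIF alpha subunits in 1205Lu.

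Other isozyme shares per kb followed the single genes. HK2 was 29.8% ± 0.743 of hexokinase in A375 si-NT and 20.3% ± 1.18 in si-FOSL1 libraries, and 27.2% ± 0.821 and 20.7% ± 0.564 in 1205Lu. PFKP was 80.8% ± 0.0860000 and 77.9% ± 0.573 of phosphofructokinase in A375, and 74.3% ± 0.176 and 69.7% ± 0.491 in 1205Lu. SLC16A3 was 70.4% ± 2.16 of the 2 lactate carriers in 1205Lu si-NT libraries but 3.36% ± 0.478 in A375, and became 57.1% ± 1.63 and 4.77% ± 0.3996 after silencing.

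The PFKFB enzymes make and remove the strongest activator of phosphofructokinase. PFKFB4 was 21.1, 19.996 and 22.6 CPM under si-NT and 27.6, 27.2 and 26.4 CPM under si-FOSL1 in A375 cells, and 20.5, 22.6 and 21.3 against 15.95, 15.8 and 19.1 CPM in 1205Lu. It rose in the first (log2 0.35) and fell in the second (log2 -0.35), and the difference of 0.69 passed (edgeR adjusted p = 1.6e-05). PFKFB3 fell in A375 cells by 0.33 on the log2 scale, and its interval in 1205Lu was -0.13 to -0.01 (edgeR adjusted p = 0.063). Of the 2, PFKFB4 held 51.7% ± 1.34 per kb in A375 si-NT libraries and 17.1% ± 0.888 in 1205Lu si-NT libraries.

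At the entry of pyruvate into mitochondria, the kinase and 1 carrier subunit fell in both lines. PDK1, which phosphorylates and slows pyruvate dehydrogenase, was 59.3, 60.7 and 58.2 CPM under si-NT and 37.6, 35.5 and 33.2 CPM under si-FOSL1 in A375 cells (log2 -0.75, SE 0.05098). In 1205Lu cells it was 89.02, 88.7 and 91.8 and 55.7, 65.6 and 57.9 CPM (log2 -0.60, SE 0.0479). MPC1, an obligate subunit of the mitochondrial pyruvate carrier, was low throughout, at 6.55, 6.44 and 6.04 and 2.11, 2.13 and 2.71 CPM in A375 and 3.62, 4.49 and 3.899 and 1.51, 1.07 and 0.859 CPM in 1205Lu. Its fall was among the steepest in the group, with log2 fold changes of -1.46 (SE 0.165) and -1.82 (SE 0.236). Its partner MPC2 rose in A375 (log2 0.32) and had an interval of -0.37 to 0.12 in 1205Lu. PDHA1, the catalytic alpha subunit of pyruvate dehydrogenase, rose by 0.24 in A375 and fell by 0.24 in 1205Lu, on averages of 85.5 to 101 and 43.7 to 37.5 CPM.

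HIF1A, the alpha subunit that drives most glycolytic HIF targets, changed little: its log2 fold change was 0.07 in A375 (861 to 910.3 CPM) and -0.15 in 1205Lu (467 to 425 CPM), and both passed. HIF alpha subunits are controlled mainly as proteins, which were not measured here. EPAS1, which encodes the HIF-2 alpha subunit, was 24.2, 24.9 and 25.2 CPM in 1205Lu si-NT libraries and 49.7, 50.5 and 51.6 CPM in si-FOSL1 libraries (log2 1.01, SE 0.0511, edgeR adjusted p = 2.9e-12). In A375 cells EPAS1 was 13.2, 15.3 and 12.2 and 14.7, 14.9 and 14.6 CPM with overlapping groups (interval -0.07 to 0.29), and the difference between the lines was -0.91 (edgeR adjusted p = 6.2e-08). EGLN3, a HIF prolyl hydroxylase that HIF itself induces, had 39, 28 and 42 counts in the A375 si-NT libraries and 96, 58 and 90 in the si-FOSL1 libraries, which did not overlap (log2 0.96, SE 0.247). A pseudogene named after EGLN3, counted apart, held up to 27.3% of the counts of gene and pseudogene together in a library. EGLN3 had 16, 10 and 27 counts in 1205Lu si-NT libraries and 23, 17 and 16 in si-FOSL1 libraries. Its change there was not detectable at this depth (interval -0.53 to 1.18).

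Of the 12 hypoxia-induced genes, 8 fell and 4 rose in A375 cells, and of the 11 tested in 1205Lu cells 6 fell, 2 rose and 3 did not pass. ERO1A, the oxidase that renews disulfide-forming capacity in the endoplasmic reticulum, showed nearly the same drop in both lines. It was 150.1, 153 and 158 CPM under si-NT and 55.4, 56.7 and 56.2 CPM under si-FOSL1 in A375 cells, and 95.9, 93.6 and 93.6 against 34.3, 37.3 and 35.1 CPM in 1205Lu. That leaves 36.4% and 37.3% of the si-NT level, with log2 fold changes of -1.46 (SE 0.0342) and -1.42 (SE 0.0431), and the 95% interval of their difference was -0.15 to 0.06. FAM162A, a mitochondrial protein linked to hypoxic cell death, was 33.5, 29.95 and 33.3 and 16.6, 16.2 and 15.001 CPM in A375 and 16.6, 17.1 and 15.5 and 4.13, 5.04 and 4.63 CPM in 1205Lu. It fell in both (log2 -1.02 and -1.85), and further in 1205Lu by 0.82 (SE 0.129, edgeR adjusted p = 1.7e-05).

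BNIP3 and BNIP3L, receptors that mark mitochondria for autophagy, fell together. BNIP3 was 143, 132 and 141 and 98.8, 94.9 and 94.5 CPM in A375 cells with si-NT and si-FOSL1, and 110.2, 118 and 109.6 and 58.1, 61.7 and 60.1 CPM in 1205Lu (log2 -0.53 and -0.92). BNIP3L was 163, 168 and 166 and 121, 123 and 125 CPM in A375 and 72.6, 68.7 and 72.5 and 52.3, 48.1 and 50.2 CPM in 1205Lu (log2 -0.43 and -0.52). Neither gene had overlapping groups in either line. NDRG1, a stress-responsive gene often used as a hypoxia marker, was 208, 208 and 204 against 126, 130.1 and 127 CPM in A375 (log2 -0.71) and 489, 494 and 491 against 392, 405 and 386 CPM in 1205Lu (log2 -0.34), and fell further in A375 (interaction -0.38, edgeR adjusted p = 1.1e-09).

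The 2 membrane carbonic anhydrases, which buffer acid outside the cell, had opposite responses in A375 cells. CA9, a classical HIF target, had 204, 236 and 195 counts in the A375 si-NT libraries and 107, 77 and 70 in the si-FOSL1 libraries (log2 -1.51, SE 0.1399), and 0 or 1 count in every 1205Lu library. CA12 had 6, 2 and 5 counts in A375 si-NT libraries and 41, 16 and 18 in si-FOSL1 libraries (log2 2.26, SE 0.533), so its fold there rests on few reads. In 1205Lu cells CA12 was 5.28, 4.71 and 6.16 and 12.2, 12.6 and 12.7 CPM and rose (log2 1.19, SE 0.126).

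The collagen prolyl hydroxylase subunits rose in A375 cells. P4HA1 was 55.8, 54.8 and 54.05 CPM under si-NT and 79.4, 79.9 and 77.4 CPM under si-FOSL1, and P4HA2 was 15.05, 16.2 and 19.6 and 30.5, 31.5 and 29.7 CPM (log2 0.52 and 0.84). In 1205Lu cells P4HA1 was 88.9, 89.8 and 91.1 and 80.7, 84.4 and 87.5 CPM, with a log2 fold change of -0.11, and P4HA2 was 77.9, 76.2 and 75.6 and 69.1, 76.9 and 72.3 CPM, with an interval of -0.17 to -0.01 (edgeR adjusted p = 0.091). The P4HA1 call in 1205Lu was lost with library size as the only scaling (-0.08), with no filter (-0.09) and without si-NT replicate 2 (-0.10), si-NT replicate 3 (-0.10), si-FOSL1 replicate 1 (-0.08) or si-FOSL1 replicate 2 (-0.11). The responses of the lines differed by 0.62 and 0.92 (edgeR adjusted p = 6.7e-10 and 7.8e-09).

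The remaining hypoxia-induced members, VEGFA, ADM and ANKRD37, had modest changes where called. VEGFA, the main angiogenic factor, was 74.3 and 66.8 CPM on average in A375 (log2 -0.16) and 105 and 124 CPM in 1205Lu (log2 0.22). The A375 call was lost without si-FOSL1 replicate 1 (-0.15) or si-FOSL1 replicate 3 (-0.09). ADM, the vasodilator adrenomedullin, fell by 0.33 on the log2 scale in A375 and lay near 1 CPM in 1205Lu (interval -0.81 to 0.53). ANKRD37 was 2.94, 2.61 and 3.23 and 4.16, 3.38 and 4.53 CPM in A375 and 2.56, 2.66 and 2.42 and 2.53, 1.38 and 1.958 CPM in 1205Lu. Its rise in A375 (log2 0.46, edgeR adjusted p = 0.039) was lost with DESeq2 (0.45), with library size only (0.43), with no filter (0.48), with all 12 libraries in one fit (0.46) and without si-NT replicate 1 (0.46), si-NT replicate 2 (0.38), si-FOSL1 replicate 1 (0.43) or si-FOSL1 replicate 3 (0.37).

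The promoters of the members often hold the HIF core. In RefSeq promoter sequences (GRCh38.p14, 250 bases before to 50 after the start, 1 per gene), 37 of the 42 members had an entry and 31 of these (83.8%) held ACGTG or GCGTG on either strand at least once, counting overlapping matches, beside 57.1% of 14883 promoters of protein-coding genes. SLC16A1, SLC2A3, BNIP3L, VEGFA and NDRG1 had no entry. The AP-1 letters TGACTCA or TGAGTCA were in 2 of the 37 (5.4%), ENO2 and CA9, beside 3.6% of all. Windows of 29 bases are printed for some of the members that fell in both lines, and for CA9. Each has 1 match to the HIF core in capitals and is read along the gene's strand. Some windows hold further matches, which are left in lower case. GPI, PFKL, ALDOA, PGK1, ENO1 and MPC1 also fell in both lines and hold matches that are not printed. A match is a description of the letters and not a bound site.
HK2 (chr2:74834067-74834095, plus strand): aatgggcgtgcgCACGTcactgatccgga
PDK1 (chr2:172556070-172556098, plus strand): cgccacgtccctCACGTaccactcggcag
BNIP3 (chr10:131982040-131982068, minus strand): cgcacgcgccgcACGTGccacacgcaccc
FAM162A (chr3:122384086-122384114, plus strand): cagcgcgtggcgCACGTcctacacgcccc
ERO1A (chr14:52695656-52695684, minus strand): cgggcgccgcggCACGTccacaggctggg
ENO2 (chr12:6914450-6914478, plus strand): acccgcgctcgtACGTGcgcctccgccgg
CA9 (chr9:35673898-35673926, plus strand): tcgtttccaatgCACGTacagcccgtaca
Several member promoters hold more than 1 match: BNIP3 and LDHA had 6 each, ALDOC 5, FAM162A, PGK1 and PDHA1 4 each, and HK2, ERO1A and ANKRD37 3 each. CACGTG, found in BNIP3 and LDHA among others, matches on both strands and is counted as 2. Whether the matches have a part in the responses was not tested. LDHA did not pass in A375 cells, and SLC16A3, with 2 matches, moved in opposite directions in the 2 lines. TPI1 fell in both lines with no match in its window. The windows of PGAM1 and PFKP, which also fell in both lines, hold none either, but their RefSeq starts lie 1627 and 422 bases from the canonical starts.

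With si-NT alone the lines differed for most members. Of the 42, 24 were higher and 15 lower in A375 than in 1205Lu, against 39.2% and 38.8% of 18050 genes tested. The 5 largest differences toward A375 were those of CA9, ALDOC, ADM, BNIP3L and GPI. ALDOC was 59.7, 58.3 and 57.4 CPM in A375 and 0.332, 0.3997 and 0.4104 CPM in 1205Lu, and ADM was 27.8, 29.01 and 29.5 and 1.03, 0.844 and 1.395 CPM (log2 difference 4.64). CA9 had 635 counts in the 3 A375 libraries together and 1 in those of 1205Lu. GPI was 537, 534 and 533 against 239, 233 and 232 CPM (log2 1.11), and BNIP3L, with the values above, differed by 1.14. Toward 1205Lu the 5 largest were SLC16A3 (-5.34), CA12 (-4.92), PFKFB3 (-2.47), P4HA2 (-2.25) and NDRG1 (-1.32). PFKFB3 was 24.3, 25.4 and 26.4 CPM in A375 and 135, 132 and 132 CPM in 1205Lu. The summed level of the 17 enzymes was 15222 to 15370.1 CPM in A375 and 15485 to 15882 CPM in 1205Lu si-NT libraries, and 15561 to 15880 and 13133 to 13293 CPM after silencing. Without GAPDH it was 9745 to 9822 CPM in A375 and 7553 to 7691 CPM in 1205Lu si-NT libraries, and 9161 to 9291 and 5992 to 6101 CPM after silencing, so the A375 sum was higher after silencing with GAPDH and lower without it.

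The difference between the responses was itself tested in all 12 libraries. It passed for 31 of the 42 members, and 23 of these had the higher log2 fold change in A375 and 8 in 1205Lu, against 15.3% and 16.6% of 19452 genes tested. Among the 17 enzymes 12 had the higher value in A375 and 2 in 1205Lu, with a median difference of 0.23 on the log2 scale. The largest differences that passed were SLC16A3 (1.57, SE 0.128), P4HA2 (0.92), EPAS1 (-0.91), ANKRD37 (0.85) and FAM162A (0.82). HK1, PFKM, ALDOC, PDK1, MPC1, EGLN3, CA9, CA12, ADM, BNIP3L and ERO1A did not pass. Among them the intervals of HK1 (-0.04 to 0.12) and BNIP3L (-0.02 to 0.18) were narrow, and that of CA9 (-5.27 to 0.24) was too wide to place it.

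Neighbouring pathway genes, taken from lists chosen with earlier results known, are described by the same counts. Of 19 other genes of pyruvate use and the pentose phosphate pathway, 13 rose and 2 fell in A375 (median log2 0.27), and of 18 tested in 1205Lu 8 rose and 3 fell (median 0.10). TKT, the transketolase of the pentose phosphate pathway, rose in both lines (log2 0.39 and 0.38). PDHX, which tethers a pyruvate dehydrogenase subunit, rose by 0.43 and 0.50, and PDP1, the phosphatase that reverses PDK1, by 0.48 and 0.12. These 3 were chosen after their values were seen. Of 21 other glycolysis and glucose genes tested in A375, 10 rose and 4 fell, and of 20 in 1205Lu 2 rose and 5 fell. Past 2-fold were ENO3, the muscle enolase (0.813, 1.15 and 1.74 to 3.82, 3.002 and 2.59 CPM in A375, log2 1.34), and PGAM2, the muscle phosphoglycerate mutase (0.452, 0.553 and 0.621 to 2.51, 1.38 and 2.18 CPM in A375, log2 1.89), both at low levels.

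Of 12 other HIF pathway genes tested in each line, 5 rose and 5 fell in A375 and 4 rose and 4 fell in 1205Lu. Only ARNT2, a partner subunit of HIF alpha proteins, passed 2-fold, at log2 -1.32 in A375 and -0.68 in 1205Lu. Of 33 other hypoxia-induced genes tested in each line, 11 rose and 12 fell in A375 (median log2 0.02) and 12 rose and 9 fell in 1205Lu (median -0.02). Among those past 2-fold were GPRC5A (-1.11 in A375), STC1, the hormone stanniocalcin (1.11 in A375) and KLHL24 (0.28 in A375 and 1.09 in 1205Lu).

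FRA1 occupancy near the members was read from raw Cut&Run counts in 54563 consensus peaks. A peak was taken as enriched where each of the 3 FRA1 libraries held 10 counts or more and reached 4 times the IgG count plus 1, and as a promoter peak with any annotated start (GENCODE v44) within 3 kb, which includes starts of minor transcripts far from the main one. In A375 cells 27 of 42 members had an enriched promoter peak, against 35.0% of 13567 protein-coding genes tested by RNA-seq. In 1205Lu cells 3 had one, SLC2A1, PFKP and PFKFB3, against 4.87% of 13699. Without FRA1 replicate 1 it was 5, against 8.62%. There is 1 IgG library per line, so no test was made. The A375 FRA1 libraries held 3354095 to 5316527 counts in peaks and the IgG library 383994, and with every library scaled to the same total the counts became 0 of 42 members (0.442% of all genes) in A375 and 1 (2.12%) in 1205Lu. With the canonical start of each gene only, an alternative chosen after seeing the data, they were 17 (23.7% of all genes) and 0 (2.1%). The 1205Lu FRA1 libraries held 583750 to 897407 counts, and replicates 2 and 3 were nearly as close as 1 library counted again (chi-square per degree of freedom 1.06, against 1.62 and 1.9 for the pairs with replicate 1). The A375 FRA1 pairs were also close, at 1.09, 1.13 and 1.25, so each library's count is given below without a mean.

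The strongest FRA1 peak at any member in A375 lay inside PFKP, at chr10:3094871-3096330 (hg38), 28052 bases downstream of the canonical start. It had 742, 1049 and 965 counts with FRA1 against 24 with IgG in A375, and 162, 286 and 247 against 10 in 1205Lu, higher than 99.7% and 99.8% of all consensus peaks by the total over the 3 libraries. PFKP had another peak, at chr10:3107166-3107801, with 63, 95 and 82 counts against 4 in 1205Lu but 0, 2 and 3 against 3 in A375. SLC2A1 had its strongest peak at chr1:42940768-42942578, with 461, 771 and 615 counts against 20 in A375 and 73, 130 and 89 against 11 in 1205Lu. PFKFB3 had 3 peaks enriched in both lines, the largest in 1205Lu at chr10:6157201-6158025, with 28, 37 and 40 counts against 3 in A375 and 43, 90 and 73 against 4 in 1205Lu. The 4 member peaks with the most FRA1 reads among those enriched in 1205Lu are shown by 29 bases of the plus strand (hg38) around the AP-1 match nearest the centre, with TGACTCA or TGAGTCA in capitals.
PFKP, inside the gene (chr10:3095592-3095620): tttttcctatgTGAGTCAtaaaactggct
PFKP, the other peak (chr10:3107431-3107459): cattttcataaTGACTCAgaagttggacg
SLC2A1 (chr1:42941915-42941943): gcagctgagcaTGACTCAgcaggccaagc
PFKFB3 (chr10:6157574-6157602): tttataataaaTGAGTCAgcatgtggtcc
The PFKP peak holds 4 such matches in its 1460 bases and the match shown lies 6 bases from its centre.

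**Figure D5:**
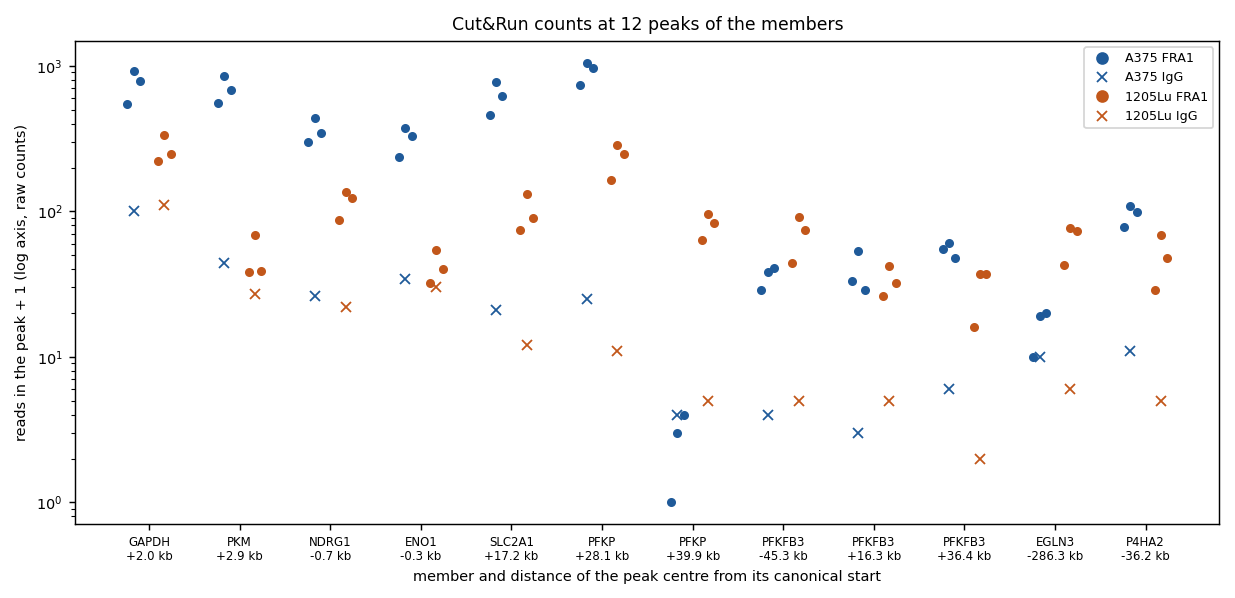
Raw Cut&Run reads plus 1 (log axis) at 12 member peaks, named by gene and by the distance of the peak centre from the canonical start, with points for the 3 FRA1 libraries and a cross for the IgG library of A375 (blue) and 1205Lu (orange). The 8 member peaks enriched in 1205Lu are shown with the 4 promoter peaks that have the most A375 reads among those enriched in A375 and not in 1205Lu (GAPDH, PKM, NDRG1 and ENO1), and the PFKP peak at +39.9 kb is at IgG level in A375.

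Of the members that fell in both lines, HK2 had an enriched promoter peak in A375 (60, 78 and 71 counts against 6) and 4 more inside the gene, the largest with 216, 329 and 261 counts against 6. ENO2 had 1 over its start, with 41, 49 and 40 counts against 4 in A375 and 11, 27 and 29 against 10 in 1205Lu, and the AP-1 letters in it, TGACTCA, are those found in its RefSeq promoter. FAM162A had 31, 30 and 22 counts against 3 at its start in A375. GPI, PFKP, ALDOA, PGK1, PGAM1, ENO1, NDRG1 and BNIP3L also had an enriched promoter peak in A375. From the canonical start, its centre lay at -39069 bases for PGK1, -5762 for GPI, 4085 for PFKP and -3055 for PGAM1. The nearest was at -450 for ALDOA, -251 for ENO1, -652 for NDRG1 and 20 for BNIP3L. PDK1, MPC1, ERO1A and TPI1 had a promoter peak that did not pass, and BNIP3 and PFKL had none. Whether the peaks have a part in the responses was not tested. Of the members that rose in both, SLC2A3 had 13, 14 and 26 counts against 2 at its start in A375, and CA12 25, 57 and 54 against 4 near a minor start. SLC16A1 had 142, 244 and 177 against 9 in A375, at a promoter peak centred 20255 bases from its canonical start. In A375, 28 of the 39 enriched promoter peaks of members (71.8%) held the AP-1 letters, beside 70.0% of all 31310 enriched peaks.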

How the data were processed

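RNA-seq: per the submitters' processing notes and the study's methods, the authors trimmed adapters (cutadapt 1.8.1), aligned reads to GRCh38 (STAR 2.7.7a) and deposited expected counts per gene (RSEM 1.3.0), whole numbers and not normalized, from strand-specific libraries. Cut&Run: the authors aligned reads with Bowtie2 2.4.1, called peaks with MACS2 2.1.1.20160309 and deposited raw counts of reads per consensus peak. Whether peaks were called per library or on pooled libraries is not given in the sources used here.

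Groups were taken from the labels. Expected counts were tested with edgeR 4.0.16 (R 4.3.3): filterByExpr, TMM, quasi-likelihood, Benjamini-Hochberg adjustment over all genes tested, and a call at an adjusted p under 0.05. Each line was fitted alone, the difference of the responses with all 12 libraries, and the si-NT lines against each other. The fit was tested on simulated data. CPM are on TMM-scaled library sizes. Intervals span the estimate ± 1.96 SE. Levels per kb used the canonical transcript (GENCODE v44). The biological coefficient of variation was 4.51% in A375 and 4.20% in 1205Lu. No 2 replicate RNA-seq libraries agreed within sampling noise, with a chi-square of 2.55 to 3.41 per degree of freedom.

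Members, lists and peak rules were chosen with earlier results of these data known. Every member is named. Values in every library are given for members called with an absolute log2 change of at least 0.5 in a line or in the difference of the responses, and for the 5 largest differences each way between the si-NT lines. Genes of the other lists are named where called with an absolute log2 fold change over 1, except 1 that is counted but not reported here by name. Alternatives were DESeq2 1.42.0, other scalings and filters, protein-coding genes only, pseudogene counts added, stricter calls, 1 fit of all libraries, a replicate block and each library left out in turn. Cut&Run peaks were compared with 1 IgG library per line and without a test. No per-sample column was left unused (0).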

Additional observations from a re-analysis of the deposited data

Results flagged for a closer look

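The response to si-FOSL1 differed between A375 and 1205Lu cells for 31 members by the edgeR test of the difference itself, and each is given here as the A375 log2 fold change minus that of 1205Lu. The 8 with an absolute difference of at least 0.5 were SLC16A3 (1.57), P4HA2 (0.92), EPAS1 (-0.91), ANKRD37 (0.85), FAM162A (0.82), PFKFB4 (0.69), P4HA1 (0.62) and LDHA (0.57). Among the carriers the others were SLC2A1 (-0.22), SLC2A3 (-0.18) and SLC16A1 (0.22).

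Of the enzymes from hexokinase to lactate dehydrogenase, the other differences were HK2 (-0.18), GPI (0.14), PFKL (0.23), PFKP (0.22), ALDOA (-0.083), TPI1 (0.42), GAPDH (0.40), PGK1 (0.43), PGAM1 (0.38), ENO1 (0.29), ENO2 (0.24), PKM (0.18) and LDHB (0.26). The sign is positive for 11 of these 13, which for members that fell in both lines means the smaller fall in A375. HK2 and ALDOA fell further in A375. Of the remaining members the differences were PFKFB3 (-0.27), PDHA1 (0.47), MPC2 (0.44), HIF1A (0.22), VEGFA (-0.39), NDRG1 (-0.38) and BNIP3 (0.38).

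Some of these calls were lost when 1 library was left out. That held for ENO2 (0.19 to 0.25) without any 1205Lu si-FOSL1 library, 1205Lu si-NT replicate 2 or 3, A375 si-NT replicate 1 or 2, or A375 si-FOSL1 replicate 1 or 2. For ANKRD37 (0.63 to 0.84) it held without replicate 1 or 2 of either si-NT group, 1205Lu si-FOSL1 replicate 2 or 3, or A375 si-FOSL1 replicate 1 or 3. SLC2A3 (-0.18 to -0.15) was lost without replicate 2 of either si-NT group, A375 si-NT replicate 3, 1205Lu si-FOSL1 replicate 1 or A375 si-FOSL1 replicate 2. MPC2 (0.34 to 0.38) was lost without A375 si-NT replicate 1, 1205Lu si-NT replicate 3 or si-FOSL1 replicate 2 of either line, and PFKL (0.18 to 0.21) without 1205Lu si-FOSL1 replicate 1 or replicate 3 of either A375 group. Other processing also ended calls. With upper-quartile scaling HK2 (-0.13), ALDOA (-0.035) and SLC2A3 (-0.13) were lost. SLC2A3 was lost as well with DESeq2 (-0.15), DESeq2 size factors in edgeR (-0.15), protein-coding genes only (-0.15) and pseudogene counts added (-0.17). ENO2 was lost with library size only (0.20), with no filter (0.22) and with the replicate block (0.24), and ANKRD37 with no filter (0.83).

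Among the genes of the other pathway lists named here for a change past 2-fold, the response differed for ENO3 (1.21), ARNT2 (-0.66), STC1 (1.22), KLHL24 (-0.82) and GPRC5A (-0.86). It also differed for all 4 dedifferentiated melanoma markers, each with the lower value in A375 (-2.58 to -0.79). What sets these differences was not tested.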

How the results depend on the processing

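The counts of called members stayed within 1.5 times of those reported under DESeq2, the other scalings and filters, protein-coding genes only, added pseudogene counts, an adjusted p under 0.01, 1 fit of all libraries and each RNA-seq library left out. With an absolute log2 change over 1 also required, 4 members fell and 1 rose in A375, and 4 fell and 2 rose in 1205Lu. Of all genes tested, 5.56% and 3.13% passed this rule in either direction. By the same rule 1 member differed in its response, against 5.09% of all genes. Between the si-NT lines 13 members differed, against 40.2% of all genes. For enriched promoter peaks in A375 the count of members was 12 at 8 times IgG plus 1 (15.1% of all genes) and 0 after scaling to the same total (0.442%). It was 17 with the canonical start only (23.7%), chosen after seeing the data, and 27 to 31 with 1 FRA1 library left out (35.1% to 43.6%). In 1205Lu it was 1 at 8 times (1.23% of all genes), 12 at 2 times (13.2%) and 1 with a start within 1 kb (3.1%). There it was 1 after scaling (2.12%) and 0 with the canonical start only (2.1%). With 1 library left out it was 3 to 5 (4.91% to 8.62%), 5 being without replicate 1.

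No called value of a member changed sign. Values that did not pass changed sign near 0. In A375 they became, with library size only, HK1 -0.015, PKM -0.013 and LDHA -0.016, and, with protein-coding genes only, HK1 -0.0042, PKM -0.0027 and LDHA -0.0054. With 1 library left out, HK1 ranged from -0.023 to 0.027 and LDHA from -0.0036 to 0.020 in A375, and ADM from -0.28 to 0.074 in 1205Lu. The difference of the responses became 0.00074 for ERO1A with upper-quartile scaling and -0.0026 for HK1 with library size only. Between the si-NT lines, PFKFB4 became 0.049 with library size only and 0.046 with no filter, and LDHB -0.0033 with at least 10 counts in every library. Library size only moved the median of all genes between the si-NT lines to 0.13.

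Every correlation of the deviations of same-numbered libraries was under 0.1, so the numbers were not taken to pair them. Not every library correlated best with its own number in A375 (si-FOSL1 replicate 2 did so with si-NT replicate 3), and in 1205Lu none did. With the replicate block 24 members fell and 14 rose in A375, 25 fell and 5 rose in 1205Lu, 39 differed between the si-NT lines and 30 differed in their response, ENO2 (0.24) being lost. Of the values of single members under an alternative, 2751 kept their direction and side of the threshold, 67 no longer passed and 26 newly passed. Low counts limit CA12, EGLN3, ANKRD37 and MPC1.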
